A study of Mus musculus with 6 samples.

Results

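The genes described here encode the asialoglycoprotein receptor, which takes up a GalNAc-conjugated siRNA, and proteins of the RNA interference machinery. The 10 genes were chosen by name, with no threshold on a measured value: Asgr1 and Asgr2, Ago1, Ago2, Ago3 and Ago4, Dicer1, Tarbp2, Tnrc6a and Xrn1. They were 10 of the 55487 genes of the count table, and all 10 were among the 14046 genes with enough counts to be tested. RNA was sequenced from the whole liver of 6 wild-type male mice on a normal chow diet, with livers taken at 17 weeks of age: 3 mice had received subcutaneous GalNAc-siNC, a control conjugate, and 3 had received GalNAc-siRnf10, a conjugate directed against Rnf10. All 6 mice had thus received a GalNAc conjugate, so that the data compare a targeting with a control siRNA and hold no untreated liver. The question asked was whether the mRNA levels of these genes differed between the groups. Uptake of the siRNA and its loading onto Argonaute were not measured in these data.

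As background, hepatocytes carry the asialoglycoprotein receptor on their sinusoidal surface, where it binds glycoproteins and conjugates that end in galactose or N-acetylgalactosamine (GalNAc) and carries them into clathrin-coated pits. ASGR1 is the major and ASGR2 the minor subunit, and the receptor returns to the surface after releasing its cargo in endosomes. An siRNA that reaches the cytosol is loaded onto an Argonaute protein, of which AGO2 can cut the matched mRNA, and all family members bind the GW182 scaffold proteins that recruit deadenylases. DICER1, with its partner TARBP2, cuts precursor microRNAs and long double-stranded RNA, and XRN1 degrades RNA from its 5′ end after cleavage or decapping.

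The promoters are shown first because receptor and machinery genes differ in their CpG content. RefSeq windows on GRCm38.p6, from 250 bases before to 50 bases after an annotated start, were matched for 9 of the 10 genes, giving 11 windows. The Ago2 window was not matched. The windows printed here, 5′ to 3′ on the strand of the gene, are Asgr1 (chr11:70054105-70054404, plus strand, the downstream of the gene's annotated starts), Asgr2 (chr11:70092394-70092693, plus strand), Ago3 (chr4:126429493-126429792, minus strand) and Dicer1 (chr12:104751903-104752202, minus strand). Capitals mark CpG dinucleotides.
Asgr1: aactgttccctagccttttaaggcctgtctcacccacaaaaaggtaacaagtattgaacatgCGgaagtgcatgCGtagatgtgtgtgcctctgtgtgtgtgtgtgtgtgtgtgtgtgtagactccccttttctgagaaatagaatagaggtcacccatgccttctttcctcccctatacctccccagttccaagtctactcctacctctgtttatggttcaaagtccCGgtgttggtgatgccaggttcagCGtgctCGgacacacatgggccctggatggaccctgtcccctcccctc
Asgr2: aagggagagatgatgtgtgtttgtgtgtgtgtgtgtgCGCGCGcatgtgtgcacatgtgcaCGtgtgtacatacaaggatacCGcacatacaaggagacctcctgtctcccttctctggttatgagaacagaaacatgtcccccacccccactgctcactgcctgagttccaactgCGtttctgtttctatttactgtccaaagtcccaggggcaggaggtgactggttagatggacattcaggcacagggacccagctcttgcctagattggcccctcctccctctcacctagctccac
Ago3: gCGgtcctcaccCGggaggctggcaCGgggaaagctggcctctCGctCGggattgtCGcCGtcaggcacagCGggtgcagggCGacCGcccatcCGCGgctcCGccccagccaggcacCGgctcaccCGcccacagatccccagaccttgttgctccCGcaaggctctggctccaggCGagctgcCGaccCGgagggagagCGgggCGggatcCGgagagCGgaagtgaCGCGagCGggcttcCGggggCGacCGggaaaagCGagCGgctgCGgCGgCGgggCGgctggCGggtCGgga
Dicer1: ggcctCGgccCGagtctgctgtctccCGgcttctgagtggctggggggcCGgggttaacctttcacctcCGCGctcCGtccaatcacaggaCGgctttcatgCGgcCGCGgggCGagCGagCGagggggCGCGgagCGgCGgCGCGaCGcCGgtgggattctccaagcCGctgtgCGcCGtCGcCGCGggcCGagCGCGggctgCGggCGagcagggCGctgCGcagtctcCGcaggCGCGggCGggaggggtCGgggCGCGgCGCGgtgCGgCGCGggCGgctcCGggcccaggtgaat

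The receptor windows held 4 and 5 CpGs in the upstream and downstream windows of Asgr1 and 6 in that of Asgr2. These counts were somewhat below the median of 7 over 32851 mouse promoter windows, of which 31.4%, 38% and 43.6% held fewer, in that order. The 7 machinery genes with a window held 11 to 54, the fewest in Tnrc6a and the most in Ago4. In Dicer1 there were 49 CpGs, and 99.0% of all windows held fewer. In Ago3 there were 37, and 94.4% of windows held fewer. For Tnrc6a, Xrn1 and Tarbp2 this share was lower, 58.6%, 73.5% and 75.2%. The ratio of observed to expected CpGs was 0.209 to 0.282 in the receptor windows and 0.784 to 1.12 in the machinery windows, with a median of 0.384 over all windows. The letters TATAAA, the core of the box that positions transcription at many tissue-specific genes, are in 13.6% of all windows on either strand and were in none of the 11. The FOXA type motif TGTTTAC is in 3.65% of windows and was in none of these. The sequence GTTAAT, which is part of the motif bound by HNF1 proteins, is in 7.10% of windows and was likewise absent from all 11. CAAAGTCCA, an HNF4 type motif, is in 0.475% of windows and was in none, whereas the shorter CAAAGTCC contained in it, searched for after the windows had been read, is in 1.42% of all windows and was in those of Asgr2 and of the downstream start of Asgr1. It began 51 bases before the Asgr2 start and 30 bases before the Asgr1 start. These matches describe letters and no binding was measured.

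The genes lie in part as neighbours. On GRCm38, Asgr1 (ENSMUSG00000020884) spans chromosome 11 from 70054085 to 70057894 and Asgr2 (ENSMUSG00000040963) from 70092644 to 70106187, both on the plus strand. Ago3, Ago1 and Ago4 follow each other on the minus strand of chromosome 4, Ago3 (ENSMUSG00000028842) from 126331704 to 126429556, Ago1 (ENSMUSG00000041530) from 126435012 to 126468583 and Ago4 (ENSMUSG00000042500) from 126489541 to 126533472. Ago2 (ENSMUSG00000036698) lies apart, on the minus strand of chromosome 15 from 73095844 to 73184935. Tarbp2 (ENSMUSG00000023051) is on the plus strand of the same chromosome from 102518192 to 102523676. Dicer1 (ENSMUSG00000041415) is on the minus strand of chromosome 12 from 104687742 to 104751952, Tnrc6a (ENSMUSG00000052707) on the plus strand of chromosome 7 from 123123885 to 123195296, and Xrn1 (ENSMUSG00000032410) on the plus strand of chromosome 9 from 95954760 to 96057803. Exons of Ago2 share 219 bases with Chrac1 on the opposite strand, which is 1.56% of the Ago2 exons. Xrn1 exons share 184 bases with Gm16794 and 604 bases with C78334, both on the opposite strand, and Tnrc6a exons share 143 bases with Gm45846 on the same strand. C78334 and Gm45846 had 0 counts in every library. Whether the counting used strand is not given in the sources used here, so reads in these stretches may belong to either gene.

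Between genes, levels were compared as CPM per kb (CPM, the TMM-normalized count scaled to a common library size, divided by the length of the gene model), since a longer transcript gives more reads. The receptor stood far above the machinery. Asgr1 had 296.5 ± 44.0 CPM per kb in GalNAc-siNC livers and 321 ± 3.42 in GalNAc-siRnf10 livers (mean ± SD, n = 3 mice each, as for all means here), and ranked 146 to 185 among the 14046 tested genes across the 6 mice. Asgr2 had 110.2 ± 3.95 and 101.2 ± 3.26 CPM per kb and ranked 348 to 453. Next came Tnrc6a, with 4.40 ± 0.462 and 3.86 ± 0.226 CPM per kb, so that Asgr2 was 25.7-fold above it on average over the 6 mice (22.3-fold to 28.3-fold). Dicer1 (3.29 ± 0.274 and 3.08 ± 0.0550), Ago1 (3.32 ± 0.236 and 2.93 ± 0.210) and Tarbp2 (2.77 ± 0.375 and 3.11 ± 0.141 CPM per kb) lay close together below it. Ago2 (1.18 ± 0.0794 and 1.32 ± 0.0581), Xrn1 (1.03 ± 0.0303 and 0.935 ± 0.0469), Ago3 (0.692 ± 0.0636 and 0.869 ± 0.0370) and Ago4 (0.628 ± 0.0313 and 0.568 ± 0.0736 CPM per kb) followed, with Ago4 at rank 10566 to 11120.

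**Figure D1:**
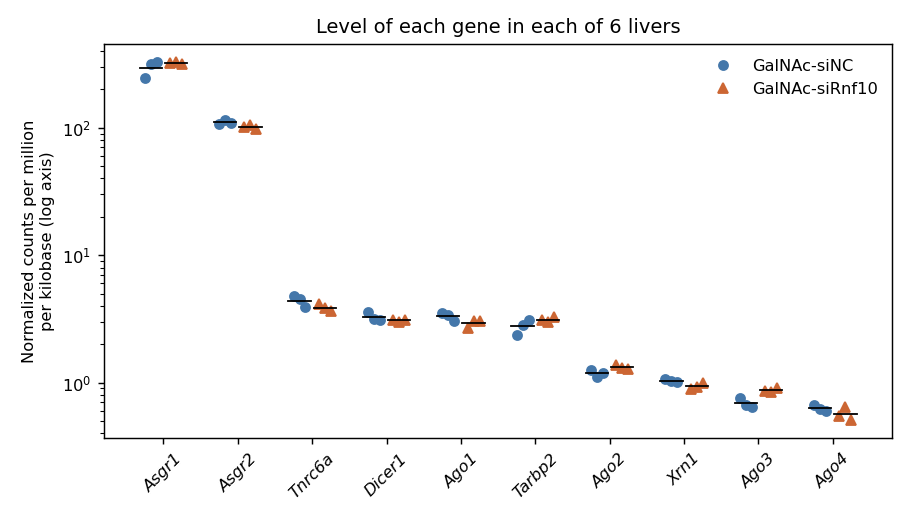
Level of the 10 genes in each of the 6 livers, in TMM-normalized CPM per kilobase of gene model on a log axis. Each point is 1 mouse, circles are GalNAc-siNC, triangles are GalNAc-siRnf10 and bars are group means. Asgr1 and Asgr2 lie between 98.1 and 328 CPM per kb and the other 8 genes lie below 5, with the groups close to each other for each gene.

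Of the 9 pairs of neighbours in this order, 5 had ranges over the 6 mice that did not overlap: Asgr1 over Asgr2 (2.91-fold on average, 2.31-fold to 3.24-fold), Asgr2 over Tnrc6a, Tnrc6a over Dicer1 (1.29-fold), Tarbp2 over Ago2 (2.35-fold) and Ago2 over Xrn1 (1.27-fold). Xrn1 was also above Ago3, and Ago3 above Ago4, in 6 of 6 mice, though their ranges overlapped. Dicer1 was above Ago1 in 4 of 6 mice and Ago1 above Tarbp2 in 3 of 6, so the order of these genes was not resolved. The order was set by the same levels, so these pairs are a description and no p is given. Dividing by the longest annotated transcript instead of the gene model put Tarbp2 above Ago1 and Xrn1 above Ago2, because the Tarbp2 gene model of 4549 bases has a longest transcript of 2732 bases and that of Xrn1 of 18585 bases one of 10256. The order of Ago2 and Xrn1 therefore depends on the length used. The gap of Tnrc6a over Dicer1 does so too. With the longest transcript their ranges overlapped (1.18-fold). With no division by length Dicer1 was above Tnrc6a in 3 of 6 mice (1.02-fold on average). The size of the gap below the receptor also depends on the length. Asgr2 was 18.95-fold above Tnrc6a with the longest transcript. With no division by length Asgr2 was 3.12-fold above Dicer1, the next gene in that order.

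The targeted gene was measured first as a check of the labels. Rnf10 had 130.4, 153 and 136 CPM in the 3 GalNAc-siNC livers and 58.6, 61.4 and 60.5 CPM in the 3 GalNAc-siRnf10 livers. The groups did not overlap, and the mean was 57.0% lower (log2 fold change −1.22, SE 0.0715, edgeR adjusted p = 3.289e-09).

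One library stood apart. In GalNAc-siNC mouse 1 the median of 2632 genes shorter than 2000 bases was 0.18 lower on the log2 scale than in the other 2 mice of its group, and that of 2281 genes of 8000 bases or more was 0.11 higher. For short and long genes these medians were 0.070 and −0.055 in GalNAc-siNC mouse 2 and 0.14 and −0.047 in mouse 3. Both of these mice were compared with a pair that includes mouse 1. In the GalNAc-siRnf10 livers the medians lay between −0.024 and 0.019. Both receptor gene models are short, 1591 bases for Asgr1 and 1574 for Asgr2, whereas those of 6 machinery genes exceed 8000 bases. Without this mouse edgeR called 20.0% of the tested genes and with a correction for gene length 15.2%, against 14.0% with all 6 mice and no correction. Total counts were 26854377 to 33058645 per library, and the members had between 98 counts (Ago4) and 16025 counts (Asgr1) in a library. The liver label was checked with marker lists: all 6 hepatocyte markers were tested and 4 of 6 were higher. Their summed level was 51930 to 55390 CPM in GalNAc-siNC and 78010 to 80820 CPM in GalNAc-siRnf10 livers. Most of this sum was Alb, at 3.68% to 4.23% of normalized counts in GalNAc-siNC and 5.985% to 6.22% in GalNAc-siRnf10 livers. Apoa1 (log2 fold change 0.084) and Hnf4a (0.081) were not called. The 6 Kupffer cell markers summed to 143 to 166 and 154 to 162 CPM, with 0 of 6 called. Of 5 stellate cell markers 2 were higher (86.0 to 88.1 against 101.7 to 102.7 CPM summed). The rest, not called, had lower point estimates: Lrat (log2 fold change −0.27), Col1a1 (−0.26) and Des (−0.20). Of 5 sinusoidal endothelial markers 2 were higher (60.7 to 63.6 against 62.8 to 65.6 CPM). Those not called were Stab2 (−0.26), Stab1 (0.029) and Pecam1 (0.058), so neither list moved as a whole. The 4 cholangiocyte markers had 0 calls (5.90 to 8.41 against 5.07 to 5.77 CPM), no T cell marker passed the count filter, 0 of 3 tested B cell markers were called, and the 1 tested neutrophil marker, S100a9, was lower. No marker in these lists was at 0 in all 6 mice. In whole liver, fewer cells of a type and less RNA per cell cannot be told apart, and the part that such shifts have in the values below was not tested.

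None of the 10 genes differed between the groups at an adjusted p under 0.05 in edgeR's quasi-likelihood test, while 14.0% of all tested genes did. DESeq2 also called 0 of the 10. At an unadjusted p under 0.05 there were 2 of 10, Ago3 and Tnrc6a, against 26.7% of all tested genes. The point estimates were higher in GalNAc-siRnf10 livers for 4 genes and lower for 6, with a median log2 fold change of −0.11 against 0.0022 over all tested genes and a median size of 0.15 against 0.18. The groups did not overlap in 5 of the 10 genes, against 32.8% of all tested genes. No 95% interval of a member in the fit of all 6 mice reached beyond a 1.47-fold difference.

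**Figure D2:**
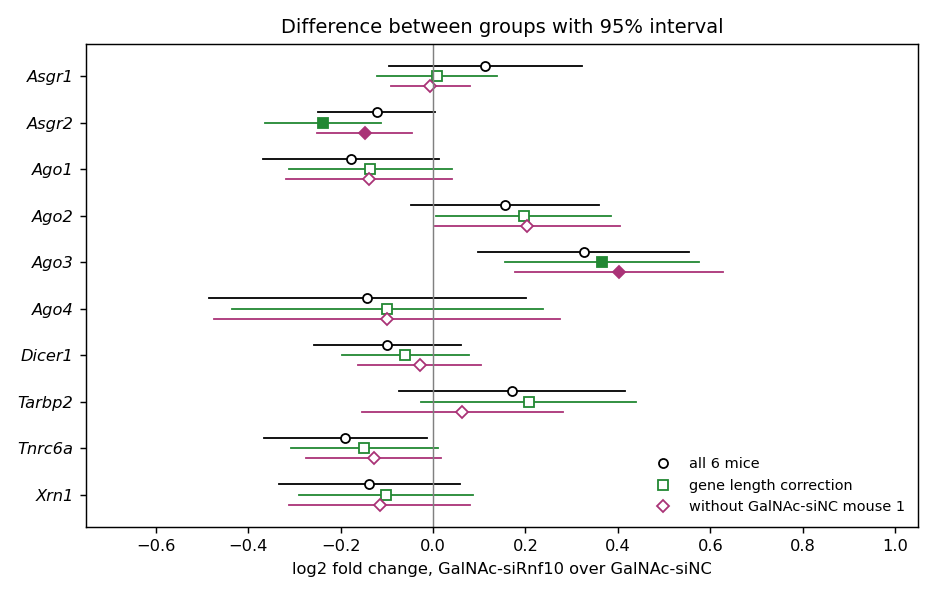
Log2 fold change of GalNAc-siRnf10 over GalNAc-siNC with its 95% interval for each of the 10 genes. Circles are the fit of all 6 mice, squares the fit with a gene length correction and diamonds the fit without GalNAc-siNC mouse 1, and filled symbols mark an adjusted p under 0.05. No circle is filled, and Asgr2 and Ago3 have filled squares and diamonds, Asgr2 below 0 and Ago3 above 0.

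Among the receptor subunits, Asgr1 had 392, 502 and 522 CPM in the GalNAc-siNC livers and 508, 517 and 506 CPM in the GalNAc-siRnf10 livers. GalNAc-siNC mouse 1 was the lowest of all 6 and the other 5 lay within 502 to 522 CPM. The log2 fold change was 0.11 (SE 0.0934, 95% interval −0.096 to 0.32, edgeR adjusted p = 0.496), without GalNAc-siNC mouse 1 it was −0.0059, and with the gene length correction it was 0.0080. Asgr2 had 168, 180 and 173 CPM in the GalNAc-siNC livers and 159, 165 and 154 CPM in the GalNAc-siRnf10 livers. The groups did not overlap, with every GalNAc-siRnf10 liver below every GalNAc-siNC liver, but the difference was small: −0.12 (SE 0.0599, interval −0.25 to 0.0047, adjusted p = 0.205). With the correction for gene length the Asgr2 difference was −0.24 (adjusted p = 0.0100), and without GalNAc-siNC mouse 1 it was −0.15 (adjusted p = 0.0322), so whether Asgr2 passed the threshold turned on these choices.

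The subunits were then compared within each library, where the scaling between libraries drops out. The ratio of Asgr1 to Asgr2 per kilobase was 2.31, 2.76 and 2.99 in the GalNAc-siNC livers and 3.16, 3.10 and 3.24 in the GalNAc-siRnf10 livers. The ratio was higher in every GalNAc-siRnf10 liver, by 0.483 on average, and the exact permutation test gave p = 0.1, the smallest that 3 mice against 3 allow (0.175 after adjustment over the 7 ratios, shares and sums compared). The lowest of the ratios was again that of GalNAc-siNC mouse 1, and without this mouse the difference was 0.297.

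The Argonaute genes differed in direction among themselves, and none passed the threshold. Ago1, the family member with the highest level, had 28.4, 27.6 and 24.8 CPM in the GalNAc-siNC livers and 21.8, 24.7 and 24.9 CPM in the GalNAc-siRnf10 livers. The groups overlapped at 24.8 to 24.9 CPM, and the log2 fold change was −0.18 (interval −0.37 to 0.012, edgeR adjusted p = 0.219). Ago2, which encodes the member that cleaves siRNA targets, had 17.7, 15.4 and 16.6 CPM against 19.4, 18.1 and 17.9 CPM. The groups did not overlap, though the highest GalNAc-siNC and the lowest GalNAc-siRnf10 liver were close, and the difference was 0.16 (interval −0.048 to 0.36, adjusted p = 0.326). Ago2 counts can include reads of Chrac1, which had 340 to 457 counts in a library.

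Ago3 was the gene nearest the threshold. It had 12.7, 11.1 and 10.6 CPM in the GalNAc-siNC livers and 14.2, 13.9 and 15.1 CPM in the GalNAc-siRnf10 livers, so that the lowest treated liver was above the highest control. The log2 fold change was 0.33 (SE 0.108, interval 0.097 to 0.55, edgeR adjusted p = 0.0549), a mean 25.5% higher. It passed the threshold without GalNAc-siNC mouse 1 (0.40, adjusted p = 0.00701) and with the gene length correction (0.37, adjusted p = 0.0172). It also passed in limma voom with quality weights (0.37, adjusted p = 0.0181), which called 16.5% of all tested genes. With any 1 of the other mice left out it did not pass (0.27 to 0.35, edgeR adjusted p 0.120 to 0.204). Nor did it pass in DESeq2 (adjusted p = 0.066). Ago4, the lowest of the family, had 4.61, 4.28 and 4.20 CPM against 3.81, 4.51 and 3.52 CPM. Its groups overlapped, with GalNAc-siRnf10 mouse 2 inside the control range, and its interval was the widest (−0.14, −0.48 to 0.20, adjusted p = 0.632), with 98 to 157 counts in a library.

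As shares of the summed Argonaute levels per kilobase, Ago1 made up the largest part in every liver. Its share was 56.6%, 58.8% and 55.7% in the GalNAc-siNC livers and 49.1%, 52.3% and 53.2% in the GalNAc-siRnf10 livers. The Ago2 share was 20.4%, 19.0% and 21.5% against 25.2%, 22.2% and 22.1%, and the Ago3 share was 12.3%, 11.6% and 11.7% against 15.7%, 14.4% and 15.8%. For these 3 genes the groups did not overlap, with mean shares of 57.0% against 51.5% for Ago1, 20.3% against 23.2% for Ago2 and 11.9% against 15.3% for Ago3 (exact permutation p = 0.1 each, the smallest possible, and 0.175 adjusted). The Ago2 share difference of 2.89 percentage points was 1.86 without GalNAc-siRnf10 mouse 1, and with levels not divided by length it was 2.56 (exact permutation p = 0.2). Shares sum to the whole, so these differences are not independent of each other. The Ago4 share overlapped (10.7%, 10.6% and 11.0% against 10.01%, 11.2% and 8.80%, exact p = 0.4). The sum of the 4 levels was 5.82 ± 0.356 CPM per kb in GalNAc-siNC and 5.68 ± 0.182 in GalNAc-siRnf10 livers (exact permutation p = 0.7, n = 3 each).

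**Figure D3:**
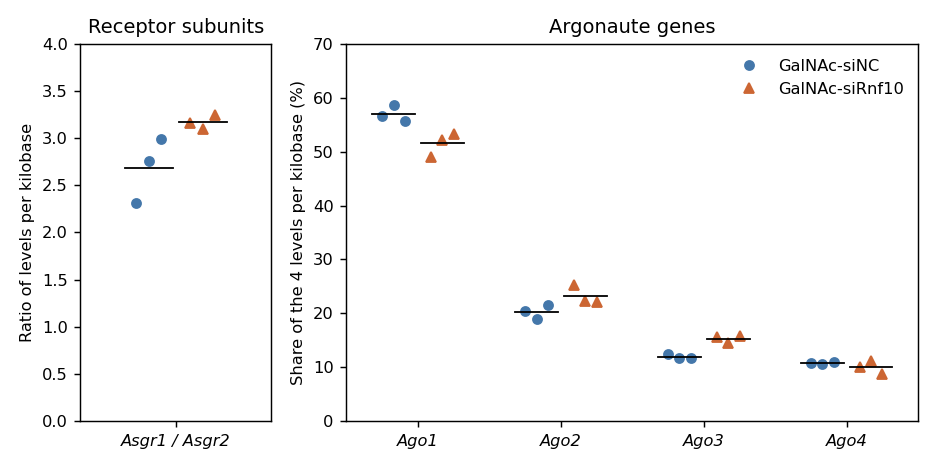
Left, ratio of Asgr1 to Asgr2 levels per kilobase in each liver; right, share of each Argonaute gene in the sum of the 4 levels per kilobase, in percent. Each point is 1 mouse, circles are GalNAc-siNC, triangles are GalNAc-siRnf10 and bars are group means. The Ago1 share is 55.7% to 58.8% in the control and 49.1% to 53.2% in the treated livers, and the Ago2 and Ago3 shares lie on the other side.

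Dicer1 and Tarbp2, the nuclease and its double-stranded RNA binding partner, did not pass the threshold. Dicer1 had 60.4, 52.8 and 52.3 CPM in the GalNAc-siNC livers and 52.1, 50.5 and 52.1 CPM in the GalNAc-siRnf10 livers. The groups did not overlap by a margin of under 1 CPM, GalNAc-siNC mouse 1 being the highest, and the log2 fold change was −0.099 (interval −0.26 to 0.060, edgeR adjusted p = 0.439). It was −0.029 without GalNAc-siNC mouse 1 and −0.060 with the gene length correction. Tarbp2 had 10.7, 13.0 and 14.1 CPM against 14.0, 13.6 and 14.9 CPM. GalNAc-siNC mouse 1 was the lowest liver and mouse 3 of that group lay among the treated livers (0.17, interval −0.074 to 0.41, adjusted p = 0.377), and without mouse 1 the difference was 0.063. The ratio of Dicer1 to Tarbp2 per kilobase was 1.53 in GalNAc-siNC mouse 1 and 0.951 to 1.10 in the other 5 livers (exact permutation p = 0.3 between the groups).

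Tnrc6a, which encodes a GW182 scaffold, had 60.7, 57.8 and 49.4 CPM in the GalNAc-siNC livers and 52.2, 48.6 and 46.5 CPM in the GalNAc-siRnf10 livers. The groups overlapped, as GalNAc-siNC mouse 3 lay below GalNAc-siRnf10 mouse 1. The log2 fold change was −0.19 (SE 0.0836, interval −0.37 to −0.013, edgeR adjusted p = 0.155). Without GalNAc-siNC mouse 3 it was −0.28 (adjusted p = 0.0403, in a fit that called 13.2% of all tested genes). That was the only 1 of 17 alternatives in which Tnrc6a passed. Without GalNAc-siNC mouse 1 the difference was −0.13 (adjusted p = 0.234) and with the gene length correction −0.15 (adjusted p = 0.215). Xrn1, the 5′ exonuclease, had 19.8, 19.0 and 18.7 CPM against 16.6, 17.3 and 18.3 CPM. The groups did not overlap, with the closest pair at 18.7 and 18.3 CPM, and the difference was −0.14 (interval −0.33 to 0.058, adjusted p = 0.372). Gm16794, on the strand opposite Xrn1, had 6 to 13 counts in a library.

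Around these genes, 81 further genes of uptake, silencing and RNA decay were listed and 78 were tested. At an adjusted p under 0.05, 2 were higher and 3 lower, 6.41% of those tested against 14.0% of all tested genes, with a median log2 fold change of −0.024. No gene was called among 13 clathrin endocytosis genes (−0.21 to 0.22) or 10 tested endosome and lysosome genes (−0.13 to 0.19). Nor was any called among 14 genes listed with the deadenylase complexes (−0.20 to 0.13) or 13 decapping and decay genes (−0.45 to 0.28). The zeros for clathrin and endosome genes depended on the library that stood apart and on the method. Without GalNAc-siNC mouse 1, 4 clathrin genes passed, in a fit that called 20.0% of all tested genes. Ap2m1 (0.14) and Picalm (0.19), for adaptors, were higher. Dnm2 (−0.24), for the dynamin that pinches vesicles off, and Cltb (−0.18), for a clathrin light chain, were lower. Eea1 (0.28), which encodes an early endosome tether, also passed without this mouse. With all 6 mice kept, Eea1 passed in limma voom with quality weights, which called 16.5% of all tested genes. Ap2m1 passed with the gene length correction as well (0.19), where 15.2% of all tested genes were called. These genes were named once their values were known. Clec4f, a Kupffer cell lectin of rodents that also binds GalNAc, had 57.3, 70.5 and 67.4 CPM against 70.6, 69.0 and 70.7 CPM (log2 fold change 0.11, edgeR adjusted p = 0.412). The other listed lectins, Clec10a and Mgl2, had at most 14 counts in a library and were not tested, nor was Sidt1, with at most 8.

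Of 11 genes for microRNA processing and loading only Hspa8 was called (9.09%, against 14.0% of all tested genes). Hspa8 encodes the constitutive HSC70 chaperone that helps load Argonaute and also uncoats clathrin vesicles. It rose from 681, 671 and 631 CPM to 1104, 1095 and 1078 CPM, with a wide gap between the groups (log2 fold change 0.73, SE 0.0519, edgeR adjusted p = 3.446e-08). Among the 10 GW182 paralogs and cofactors 1 was higher and 2 were lower, 30% of them against 14.0% of all tested genes. Mov10, an RNA helicase that associates with Argonaute, fell from 39.1, 44.3 and 38.8 CPM to 29.4, 30.8 and 31.3 CPM (−0.42, SE 0.0804, adjusted p = 0.00179). Zswim8, the substrate receptor of a ubiquitin ligase that acts in target-directed microRNA decay, fell from 35.9, 39.8 and 40.5 CPM to 28.1, 27.9 and 29.5 CPM (−0.44, SE 0.0797, adjusted p = 0.000979). Neither gene overlapped between the groups, and with the GC content and length correction the differences were −0.28 for Mov10 and −0.29 for Zswim8, both still past the threshold. Fxr1, an RNA-binding protein gene of the FMR1 family, was at 41.1, 35.1 and 38.2 CPM against 47.8, 45.9 and 45.8 CPM (0.29, adjusted p = 0.0195), and lost the call when any 1 mouse other than GalNAc-siNC mouse 1 was left out (adjusted p 0.0527 to 0.117).

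Among 6 genes for RNA sensors and antiviral kinases, Tlr3, an endosomal sensor of double-stranded RNA, was the only one called (16.7%, against 14.0% of all tested genes). It had 10.4, 6.50 and 8.33 CPM in the GalNAc-siNC livers and 5.87, 5.35 and 4.77 CPM in the GalNAc-siRnf10 livers. All treated livers were lower, and the control livers were spread widely (log2 fold change −0.66, SE 0.165, edgeR adjusted p = 0.0116). Without GalNAc-siRnf10 mouse 2 the adjusted p was 0.0522 and without mouse 3 it was 0.0796, at log2 fold changes of −0.67 and −0.59. The 6 genes had a median log2 fold change of −0.21 (−0.66 to 0.045). Ifih1 (−0.23, edgeR adjusted p = 0.0523) was not called with all 6 mice but passed in 7 of 17 alternatives. Without GalNAc-siNC mouse 1 the number of pathway genes called was 11 (20.0% of all tested genes were called there), and without GalNAc-siRnf10 mouse 2 or mouse 3 it was 3 (7.84% and 7.78% of all tested genes).

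**Figure D4:**
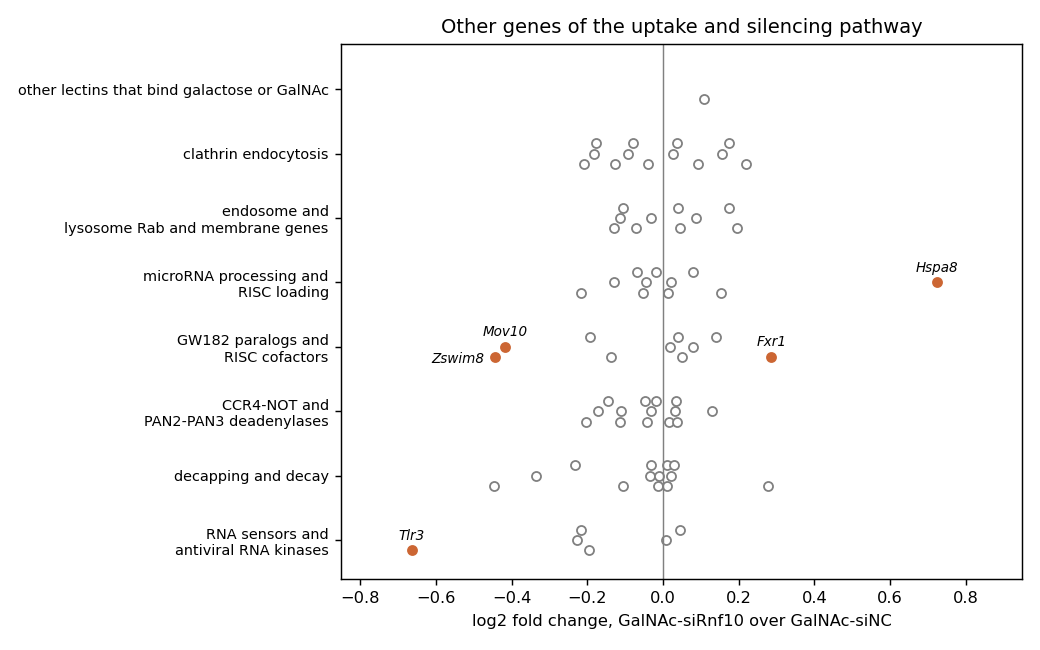
Log2 fold change of GalNAc-siRnf10 over GalNAc-siNC for the 78 tested pathway genes, in rows by role. Each point is 1 gene, displaced vertically for legibility, and filled points have an edgeR adjusted p under 0.05. Hspa8 and Fxr1 lie to the right, Mov10, Zswim8 and Tlr3 to the left, and 73 genes are open.

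The genes with the pattern most like 3 of the members were found among 7365 tested genes with a mean of at least 10 CPM, by Pearson's correlation of log2 CPM over the 6 mice, given as a description. For Asgr1 they were Pebp1 (0.998), Gm6055 (0.997) and Myl6 (0.995), each lowest in GalNAc-siNC mouse 1, and 486 genes had a correlation above 0.9. For Asgr2 they were Vasp (0.989), Etv6 (0.988) and Kremen1 (0.987), with 238 genes above 0.9. For Ago2 they were Slc22a30 (0.990), Alg11 (0.989) and Cyp2c68 (0.987), with 197 genes above 0.9. Over 6 points that share libraries and depth, many genes come this close.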

How the data were processed

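Liver RNA of 6 mice, 3 per group as the labels give it, was analysed, with 1 library per mouse and all in 1 labelled batch. The authors prepared stranded mRNA libraries, mapped paired-end reads to GRCm38 (mm10) using HISAT2, and deposited unnormalized counts for each gene beside its gene model length in bases. The counting tool, its strand setting and the treatment of reads that match several genes are not given in the sources used here. The study's text calls the conjugate GalNAc-siRnf10-2, and its dose in these mice is not in the labels.

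Testing used edgeR 4.0.16 under R 4.3.3 (filterByExpr, TMM, robust quasi-likelihood F-test, treatment only, Benjamini-Hochberg over 14046 genes), with a called gene at an adjusted p under 0.05 and SE derived from F. The biological coefficient of variation was 9.28%. Total counts were 26854377 to 33058645, and a count of 0 allows up to 3 counts (at most 1.12e-05% of a library, counting error only). Levels and ratios used Python 3.11.15, scipy 1.17.1 and pandas 2.3.3, with exact permutation tests. Symbols and exons came from GENCODE M21, and 260 identifiers had no symbol. The tests were checked on simulated counts.

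All members were named. Pathway genes were named where called (at most 4 per role) or where alone in their role above 1 CPM. S100a9 and the other cell type markers given by name, Sidt1, Ifih1, Snd1 and the genes under the count filter were named after their values were seen. The members and lists were chosen with earlier results of these data known. Alternatives were RLE and upper quartile normalization, other count filters, DESeq2 1.42.0, limma 3.58.1 voom with quality weights, a replicate block, a gene length spline and leaving out each mouse. The GC content and length correction was added after seeing the data.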

Additional observations from a re-analysis of the deposited data

How the results depend on the processing

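Against 0 members called, 1 was called by limma voom with quality weights (Ago3) and 2 (Asgr2 and Ago3) with the gene length correction, with that correction and the replicate block, and with the added GC content and gene length correction without or with the block (15.1% to 17.4% of all tested genes). Leaving out 1 mouse at a time gave 0 to 2 members, with 2 without GalNAc-siNC mouse 1 and 1 (Tnrc6a) without GalNAc-siNC mouse 3 (20.0% and 13.2% of all tested genes called in those runs), and 3 to 11 pathway genes against 5. The 11 were without GalNAc-siNC mouse 1 (20.0% of all tested genes called) and the 3 without GalNAc-siRnf10 mouse 2 or 3 (7.84% and 7.78%). Voom called 8 of the 78 tested pathway genes, and 16.5% of all tested genes. Adjusted p of Asgr2 was 0.00372 and of Ago3 0.0187 with GC content and length, and 0.0124 and 0.0272 with length and block. The Asgr1 difference, 0.11 in the full data and −0.0059 to 0.19 leaving out 1 mouse, changed sign with GC content and length (−0.0022) and without GalNAc-siNC mouse 1 (−0.0059). Genes called numbered 1965 in all, 2864, 1633 and 1900 without GalNAc-siNC mouse 1, 2 or 3, and 1053, 1128 and 1128 without GalNAc-siRnf10 mouse 1, 2 or 3. The cause of these shifts was not tested.

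The plain replicate block called 1816 genes and 0 members. Same-numbered mice did not deviate together (correlations 0.000478, 0.0461 and −0.0439), not every mouse correlated best with its own number, and no label pairs them. Rnf10 was called in every alternative run. Over 17 alternatives of the differences of 16 genes (the members and 6 pathway genes named with values in every mouse), 251 kept direction and side of the threshold, 12 newly passed, 7 no longer passed and 2 changed sign. A further 7 pathway genes passed in at least 1 alternative, Ifih1 in 7, Ap2m1 and Snd1 in 5 each. The alternatives called 7.27% to 20.0% of all tested genes.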
